A study of Mus musculus with 10 samples.

Results

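The genes described here encode 10 secreted or nuclear parts of the TGF-beta and BMP signalling system in mouse embryonic fibroblasts, and were taken by name from the deposited expression tables. They are the TGF-beta ligands Tgfb1, Tgfb2 and Tgfb3, the activin subunit Inhba, the protease Bmp1, the ligand Bmp4, the antagonists Grem1 and Fst, the follistatin-like gene Fstl1 and the target gene Id1. All 10 were among the 22552 genes listed and among the 10901 tested, whose mean over the libraries was 1 FPKM or more. FPKM counts fragments relative to transcript length and library size, so it can be compared between genes. The study asked how the cold-inducible RNA-binding proteins Cirbp and Rbm3 bind and influence the transcriptome. RNA-seq of polyadenylated RNA gave 8 libraries in 4 groups of 2, namely mock-transfected cells at 37 °C (mock 37 °C), mock-transfected cells at 32 °C (mock 32 °C), and cells at 37 °C transfected with siCirbp or with siRbm3, small interfering RNAs against each protein. PAR-CLIP, which reads RNA sites crosslinked to a protein through 4-thiouridine, was done in 1 library each of fibroblast lines with a stable FLAG-tagged copy of Cirbp or of Rbm3, after 16 h in 100 µM 4-thiouridine, in cells grown at 37 °C. The genotype, strain and passage of the fibroblasts and the time at 32 °C are not given in the sources used here. The comparison group of both siRNA groups was mock transfection, with no group of a control siRNA among the samples, so an effect of the target and one of siRNA transfection cannot be told apart.

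TGF-beta, activin and BMP ligands are secreted dimers that bind paired serine/threonine kinase receptors, which phosphorylate SMAD transcription factors. TGF-beta and activin act mainly through Smad2 and Smad3, and BMPs through Smad1, Smad5 and Smad9, whose best known targets are the Id genes, inhibitors of basic helix-loop-helix factors. Outside the cell the ligands are held back by antagonists, of which gremlin binds BMPs and follistatin binds activin most tightly. In fibroblasts the pathway is known for its control of matrix production.

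The deposited coverage, divided by FPKM, put the depth at 24.8 to 27.8 M mapped fragments per library. Libraries of a group differed by a median absolute log2 value of 0.0879 in mock 37 °C and 0.107 in mock 32 °C, against 0.261 in siCirbp and 0.313 in siRbm3. The labels name no separate cultures for the replicates, so the p-values measure only the spread between these libraries, which may be technical. The labels also leave unsaid whether the numbered libraries of siCirbp and of siRbm3 hold different siRNAs, and replicate here means only the number in the label. Cirbp had 10.8 and 6.07 FPKM in siCirbp against 15.9 and 17.1 in mock 37 °C (log2 difference -0.94, limma adjusted p = 0.116). Rbm3 was higher in siCirbp, at 5.54 and 7.55 FPKM against 1.85 and 2.21 in mock 37 °C. Its log2 difference was 1.31 (limma adjusted p = 0.0588). Neither difference passed the threshold used below. The part of Rbm3 in the siCirbp values was not tested. At 32 °C Cirbp had 34.5 and 37.2 FPKM (limma adjusted p = 0.0313 against mock 37 °C). Rbm3 there had 3.64 and 3.20 (limma adjusted p = 0.191). Rbm3 had 3.05 and 1.16 FPKM in siRbm3 against 1.85 and 2.21 in mock 37 °C, so replicate 1 of that group was above both controls and went against its label. These are called the libraries labelled siRbm3 below. Of 9 fibroblast markers, 7 had a mean of at least 1 FPKM, while Thy1 was listed at 0 in every library and Lum reached at most 0.181. The summed fibroblast markers ran from 4615 to 4816 FPKM in mock 37 °C, 2536 to 2694 in mock 32 °C, 2454 to 3087 in siCirbp and 3999 to 6372 in the libraries labelled siRbm3.

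In mock 37 °C the 10 genes spanned Fstl1 at 143 ± 3.94 FPKM (mean ± SD, n = 2, as for all such values) to Fst at 2.23 ± 0.432. Between them stood, in falling order, Inhba at 65.4 ± 5.53, Id1 at 44.0 ± 9.67, Bmp1 at 34.0 ± 2.30, Tgfb1 at 31.0 ± 2.47, Grem1 at 19.1 ± 0.700, Tgfb3 at 16.0 ± 0.923, Bmp4 at 12.7 ± 1.08 and Tgfb2 at 7.43 ± 0.559 FPKM. Only Bmp1 and Tgfb1 were neighbours whose libraries overlapped. At 32 °C Grem1 took the second place at 61.8 ± 2.82 FPKM and Fst moved above Tgfb3 and Tgfb2, with no overlap between neighbours. In siCirbp Id1 took the second place at 112 ± 1.50 FPKM, its range lying within that of Fstl1 at 127 ± 25.5. Reads behind a single value ran from 93 for Fst in replicate 2 of siCirbp to 16955 for Fstl1 in replicate 2 of the siRbm3 label.

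**Figure D1:**
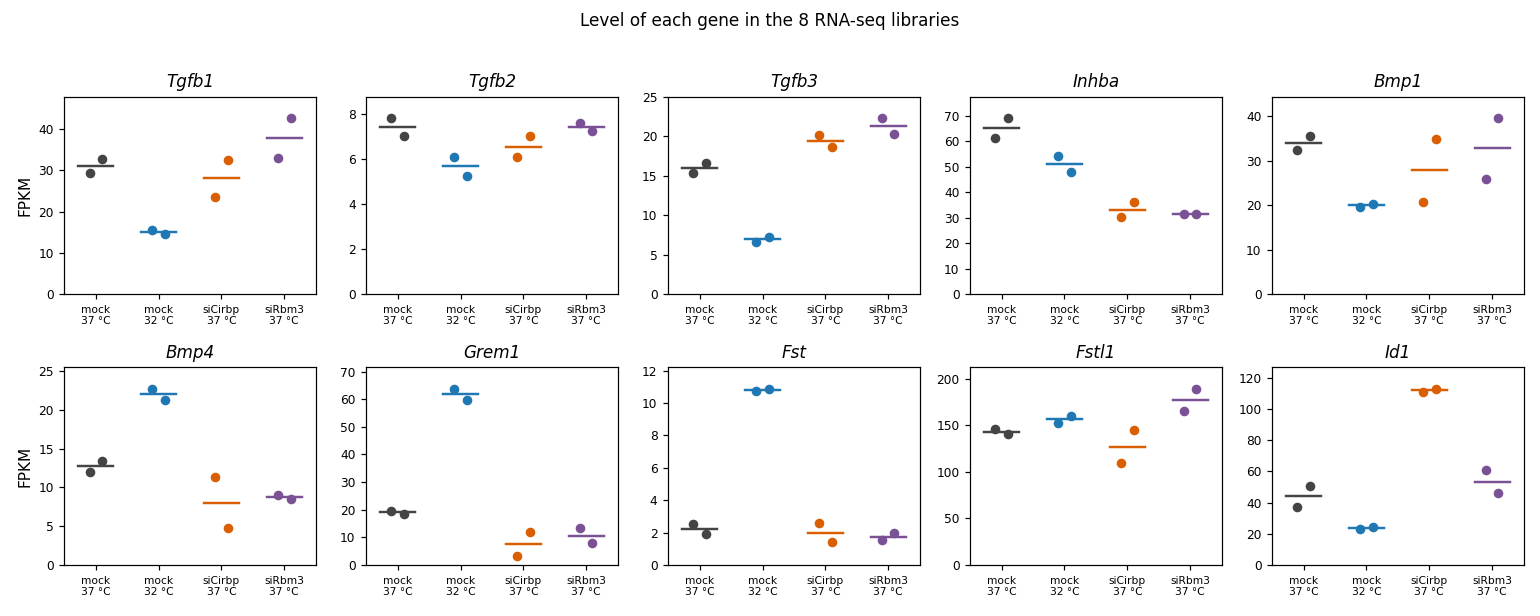
FPKM of each of the 10 genes in every RNA-seq library, on linear axes that start at 0 and are scaled per gene, with points for libraries and horizontal lines for group means. Grem1 and Fst sit highest at 32 °C, Tgfb1 and Tgfb3 lowest there, Inhba is lowest in the siRNA groups and Id1 highest in siCirbp.

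The first comparison was 32 °C against 37 °C in mock-transfected cells. At 32 °C the antagonists Fst and Grem1 rose, by 4.85-fold and 3.24-fold in mean FPKM. The ligands Tgfb1 and Tgfb3 fell, to 14.98 and 6.95 FPKM from 31.0 and 16.0, and the BMP target Id1 fell to 23.7 from 44.0. With limma, 5 of the 10 genes passed an adjusted p of 0.05, where 32.8% of all tested genes passed. The 2 that rose compare with 13.0% of all tested genes and the 3 that fell with 19.8%. Libraries of the 2 groups did not overlap for any of the 10 genes, as for 84.9% of all tested genes. The median log2 fold change of the 10 genes was -0.35, beside -0.02 over all tested genes.

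Tgfb1, the most studied TGF-beta ligand (mm9 chromosome 7, 26472021 to 26490015), stood at 29.3 and 32.8 FPKM at 37 °C and at 15.5 and 14.5 at 32 °C. Both cold libraries were below both warm ones, and the gene fell by 1.00 on the log2 scale (SE 0.20, limma adjusted p = 0.0109). Tgfb3 (chromosome 12, 87397693 to 87419991), a ligand best known from palate fusion, stood at 15.3 and 16.6 FPKM at 37 °C and at 6.66 and 7.25 at 32 °C. It fell by 1.09 on the log2 scale (SE 0.14, limma adjusted p = 0.00307). Tgfb2 (chromosome 1, 188447065 to 188529871) stood at 7.83 and 7.04 FPKM against 6.10 and 5.23. Its log2 difference of -0.34 (95% confidence interval -0.70 to 0.022) did not pass (limma adjusted p = 0.129). Summed over the 3 ligands, the level was 52.4 and 56.4 FPKM in mock 37 °C and 28.2 and 27.0 in mock 32 °C. The share of Tgfb2 in that sum was 14.9% and 12.5% at 37 °C and 21.6% and 19.4% at 32 °C.

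**Figure D2:**
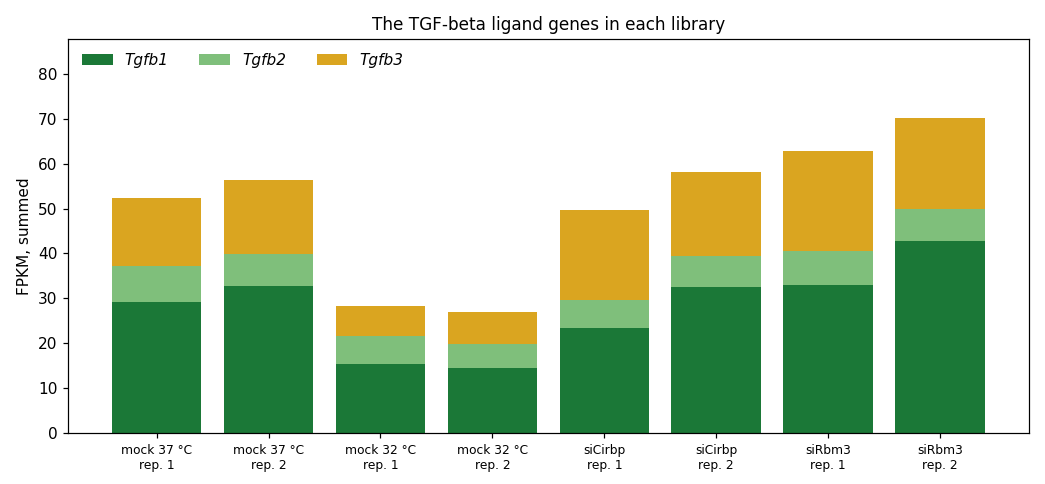
Stacked bars of the FPKM of Tgfb1, Tgfb2 and Tgfb3 in each RNA-seq library. The sums of both 32 °C libraries, 28.2 and 27.0 FPKM, are the lowest of the 8, and Tgfb1 is the tallest segment in each library.

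Inhba, the subunit of activin A (chromosome 13, 16106308 to 16119044), stood at 61.5 and 69.3 FPKM at 37 °C and at 54.2 and 47.8 at 32 °C. The log2 difference of -0.35 (95% confidence interval -0.71 to 0.0044) did not pass (limma adjusted p = 0.113). Bmp1 (chromosome 14, 70874362 to 70920067), which despite its name is a procollagen C-proteinase that also cleaves the BMP antagonist chordin, stood at 32.4 and 35.7 FPKM against 19.6 and 20.3. Its log2 difference was -0.74 (95% confidence interval -1.38 to -0.10, limma adjusted p = 0.0733). Bmp4 (chromosome 14, 47003196 to 47010274), a BMP ligand of early mesoderm, was the ligand with higher values in the cold, at 11.9 and 13.5 FPKM against 22.7 and 21.3. The log2 difference of 0.75 (95% confidence interval 0.017 to 1.48) did not pass after adjustment (limma adjusted p = 0.103). In a fit of only the 2 groups compared Bmp4 passed (limma adjusted p = 7.8e-05), where 9 of the 10 genes and 7557 of all tested genes did.

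Grem1 (chromosome 2, 113588832 to 113598805) stood at 19.6 and 18.6 FPKM at 37 °C and at 63.8 and 59.8 at 32 °C. Both cold libraries were far above both warm ones. It rose by a log2 fold change of 1.64 (SE 0.47, limma adjusted p = 0.0324), the 95th largest of the 10901. Fst (chromosome 13, 115242470 to 115248938) stood at 2.54 and 1.92 FPKM at 37 °C and at 10.7 and 10.9 at 32 °C. It rose by 1.88 (SE 0.22, limma adjusted p = 0.00260), and the log2(FPKM + 1) scale understates the change of so low a gene. Fstl1 (chromosome 16, 37777141 to 37836602), a secreted glycoprotein of the follistatin family, stood at 145.8 and 140.3 FPKM against 152.6 and 159.9. Its log2 difference was 0.13 (95% confidence interval -0.29 to 0.54, limma adjusted p = 0.608). Id1 (chromosome 2, 152562010 to 152563146) stood at 37.1 and 50.8 FPKM at 37 °C and at 22.9 and 24.5 at 32 °C. It fell by 0.85 on the log2 scale (SE 0.20, limma adjusted p = 0.0176).

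**Figure D3:**
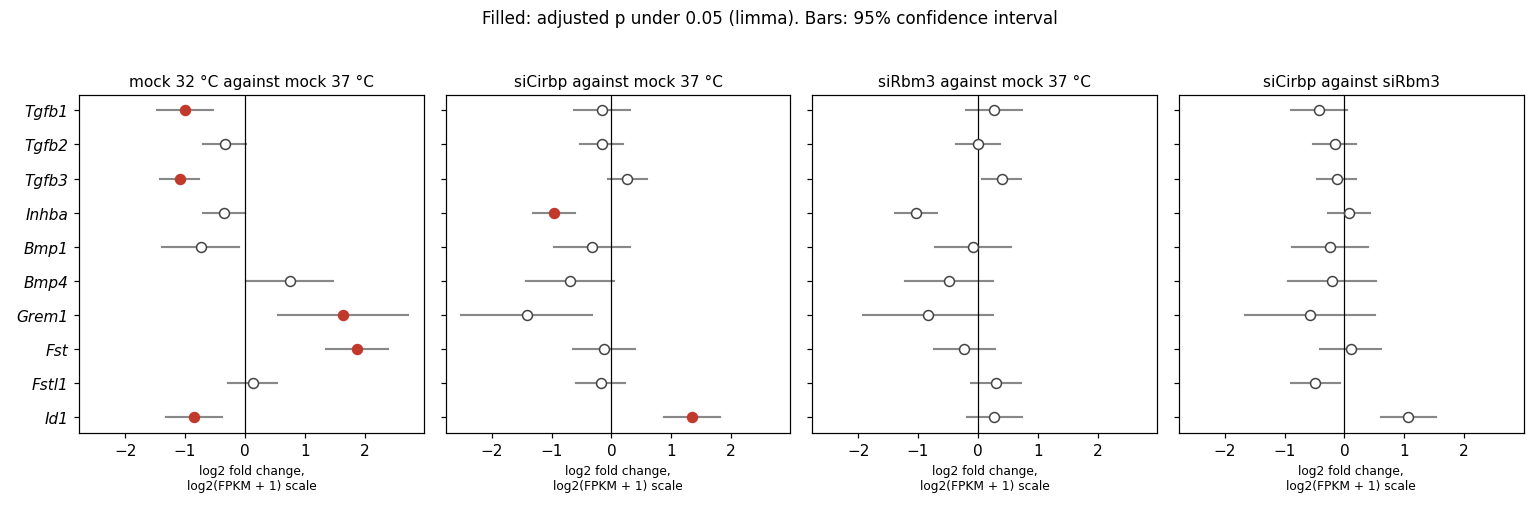
Log2 fold changes of the 10 genes on the log2(FPKM + 1) scale in the 4 comparisons, with 95% confidence intervals from limma. Filled points passed an adjusted p of 0.05, namely 5 genes at 32 °C and Inhba and Id1 in siCirbp.

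Fst and Tgfb3 passed when any 1 of the 8 libraries was left out. Without 1 of the 4 mock libraries Tgfb1 no longer passed (adjusted p = 0.0629 to 0.0951), nor did Grem1 (0.127 to 0.148), and the count of the 10 genes that passed was 3, 2, 2 and 2, beside 655, 398, 826 and 395 of the 10901 genes. Id1 did not pass without replicate 2 of mock 37 °C (adjusted p = 0.139) or without replicate 1 or 2 of mock 32 °C (0.103 and 0.102). Markers of other cell types moved with temperature as well, and their part in these results was not tested. Muscle markers, nearly all Tnnt2, summed to 47.7 to 52.4 FPKM at 37 °C and 37.8 to 40.2 at 32 °C. Endothelial markers, mostly Egfl7, summed to 2.26 to 3.26 and 1.17 to 2.09. Neither Tnnt2 nor Egfl7 passed (limma adjusted p = 0.111 and 0.145). The neural markers, Nes and Sox2 the highest of them, summed to 50.4 to 53.9 FPKM at 37 °C and 17.5 to 18.4 at 32 °C. The epithelial markers, at 37 °C nearly all Krt19, summed to 1.41 to 1.75 and 0.0947 to 0.202. Macrophage markers summed to 17.6 to 20.6 and 30.5 to 36.0 FPKM, nearly all Cd68 and Cd14, which did not pass (limma adjusted p = 0.134 and 0.147). Emr1 was listed at 0 throughout, and Csf1r, at 0.339 and 0.249 against 0.184 and 0.277 FPKM, overlapped. Adipocyte markers summed to 19.0 to 19.9 and 29.7 to 29.9. Within the adipocyte list Lipe fell (8.40 and 9.62 against 2.81 and 2.97 FPKM, limma adjusted p = 0.00352), while Fabp4 was higher (10.2 and 9.98 against 26.7 and 26.7) and did not pass (0.117). Of the 7 tested fibroblast markers, whose sum was lower in the cold, 4 fell and Pdgfra rose (limma adjusted p = 0.0259). Col3a1 was higher too (73.1 and 72.1 against 133 and 121 FPKM) and did not pass (0.245). In RNA of whole cultures, fewer cells of a type and less RNA per cell cannot be told apart.

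Promoter sequence from RefSeq (GRCm38.p6, 250 bases before the transcript start, 5′ to 3′ on the gene's strand) was at hand for 6 of the 10 genes, Tgfb1, Tgfb2, Inhba, Bmp4, Grem1 and Fstl1. The 3 printed belong to genes that passed in a comparison, the cold-raised Grem1 (chr2:113758649-113758898, minus strand), the cold-lowered Tgfb1 (chr7:25686752-25687001, plus strand) and Inhba (chr13:16011601-16011850, plus strand), lower in siCirbp. Capitals mark matches, on either strand, to the SMAD box CAGAC, the AP-1 site TGANTCA, the GC box GGGCGG or the TATA box TATAAA.
Grem1: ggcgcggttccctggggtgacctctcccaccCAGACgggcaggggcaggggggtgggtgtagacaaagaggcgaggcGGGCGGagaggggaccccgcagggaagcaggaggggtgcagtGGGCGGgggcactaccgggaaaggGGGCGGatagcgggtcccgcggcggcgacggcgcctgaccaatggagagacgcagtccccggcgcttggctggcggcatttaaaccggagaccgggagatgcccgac
Tgfb1: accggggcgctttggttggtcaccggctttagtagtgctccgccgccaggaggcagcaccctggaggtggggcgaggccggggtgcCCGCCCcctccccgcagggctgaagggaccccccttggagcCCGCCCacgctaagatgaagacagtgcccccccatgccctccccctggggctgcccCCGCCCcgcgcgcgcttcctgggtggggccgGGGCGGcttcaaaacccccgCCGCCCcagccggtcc
Inhba: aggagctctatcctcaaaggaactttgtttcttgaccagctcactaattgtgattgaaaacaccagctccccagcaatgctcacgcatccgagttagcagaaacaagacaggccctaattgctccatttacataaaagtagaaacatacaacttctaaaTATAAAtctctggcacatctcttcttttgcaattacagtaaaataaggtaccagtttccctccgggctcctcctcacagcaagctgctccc
The Grem1 window held 1 CAGAC, 219 bases before the start, and 3 GGGCGG. Tgfb1 had 5 GGGCGG, between 164 and 16 bases before the start, and no CAGAC. Inhba had 1 TATAAA, 91 bases before the start, and none of the other motifs. G and C made up 72.0% of the Grem1 window, 75.2% of the Tgfb1 window and 43.2% of the Inhba window, against a median of 52.4% over all 32851 windows. Of those windows 42.2% held CAGAC, 32.7% GGGCGG, 12.4% TATAAA and 6.75% TGANTCA, and none of the 6 windows of these genes held TGANTCA. Matches are given as a description of the letters.

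The rest of the pathway was read from 7 lists of 79 genes, of which 47 had a mean of at least 1 FPKM. At 32 °C 16 of the 47 fell and 0 rose, which is 34.0% beside 19.8% of all tested genes that fell. Their median log2 fold change was -0.38. Among the other ligands 1 of 2 fell, Gdf11, from 21.5 ± 2.14 to 10.9 ± 0.218 FPKM (log2 fold change -0.91, limma adjusted p = 0.0356), a call lost without the filter (0.0680) and with median centring (0.0535). Among the other secreted antagonists 1 of 5 fell, Fstl3, an activin-binding relative of Fst, which stood at 27.5 and 28.1 FPKM at 37 °C and at 7.83 and 6.96 at 32 °C (log2 fold change -1.78, limma adjusted p = 0.0125). The direction of Fstl3 was thus opposite to that of Fst. In the list of latency, processing and activation 1 of 6 fell, Furin, the protease that cleaves the TGF-beta precursor, from 48.2 ± 6.26 to 23.0 ± 0.104 FPKM (log2 fold change -1.03, limma adjusted p = 0.00393).

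Of 11 receptors and co-receptors 3 fell. Acvr1, a BMP type I receptor, went from 26.0 ± 0.0520 to 12.8 ± 1.38 FPKM (log2 fold change -0.97, limma adjusted p = 0.00424). Acvr1b, the main activin type I receptor, changed by -0.87 (limma adjusted p = 0.00998) and Tgfbr2, the TGF-beta type II receptor, by -0.66 (limma adjusted p = 0.0106). Of 12 SMADs and SMAD regulators 4 fell, among them the inhibitory Smad7, from 10.9 ± 0.851 to 4.45 ± 0.205 FPKM (log2 fold change -1.13, limma adjusted p = 0.00626). The corepressor Ski changed by -0.79 (limma adjusted p = 0.00903) and Smad3, which carries TGF-beta and activin signals, by -0.61 (limma adjusted p = 0.0180). Fold changes at 32 °C were lower for longer transcripts (Spearman -0.341 across genes, which are not independent replicates). With that trend removed Smad3 stood at -0.33 and did not pass (limma adjusted p = 0.0797), while Tgfbr2 at -0.41 and Ski at -0.48 did.

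Of 6 BMP targets 3 fell at 32 °C. Id3 stood at 57.7 and 73.1 FPKM at 37 °C and at 21.1 and 26.6 at 32 °C (log2 fold change -1.42, limma adjusted p = 0.00294), the same direction as Id1. Hey1, a repressor also driven by Notch, went from 17.2 ± 0.554 to 4.98 ± 1.75 FPKM (log2 fold change -1.63, limma adjusted p = 0.00913), and Atoh8 from 6.22 ± 1.26 to 2.39 ± 0.395 (log2 fold change -1.09, limma adjusted p = 0.0194). Of 5 TGF-beta targets 3 fell. Pmepa1, a feedback inhibitor, changed by -0.95 (limma adjusted p = 0.0125), and the collagen gene Col1a1 by -1.96 (limma adjusted p = 0.00148). Without 1 library the count of the 47 genes that fell or rose ran from 2 to 22, and it was 5 and 2 without replicate 1 and 2 of mock 37 °C and 5 and 4 without replicate 1 and 2 of mock 32 °C.

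**Figure D4:**
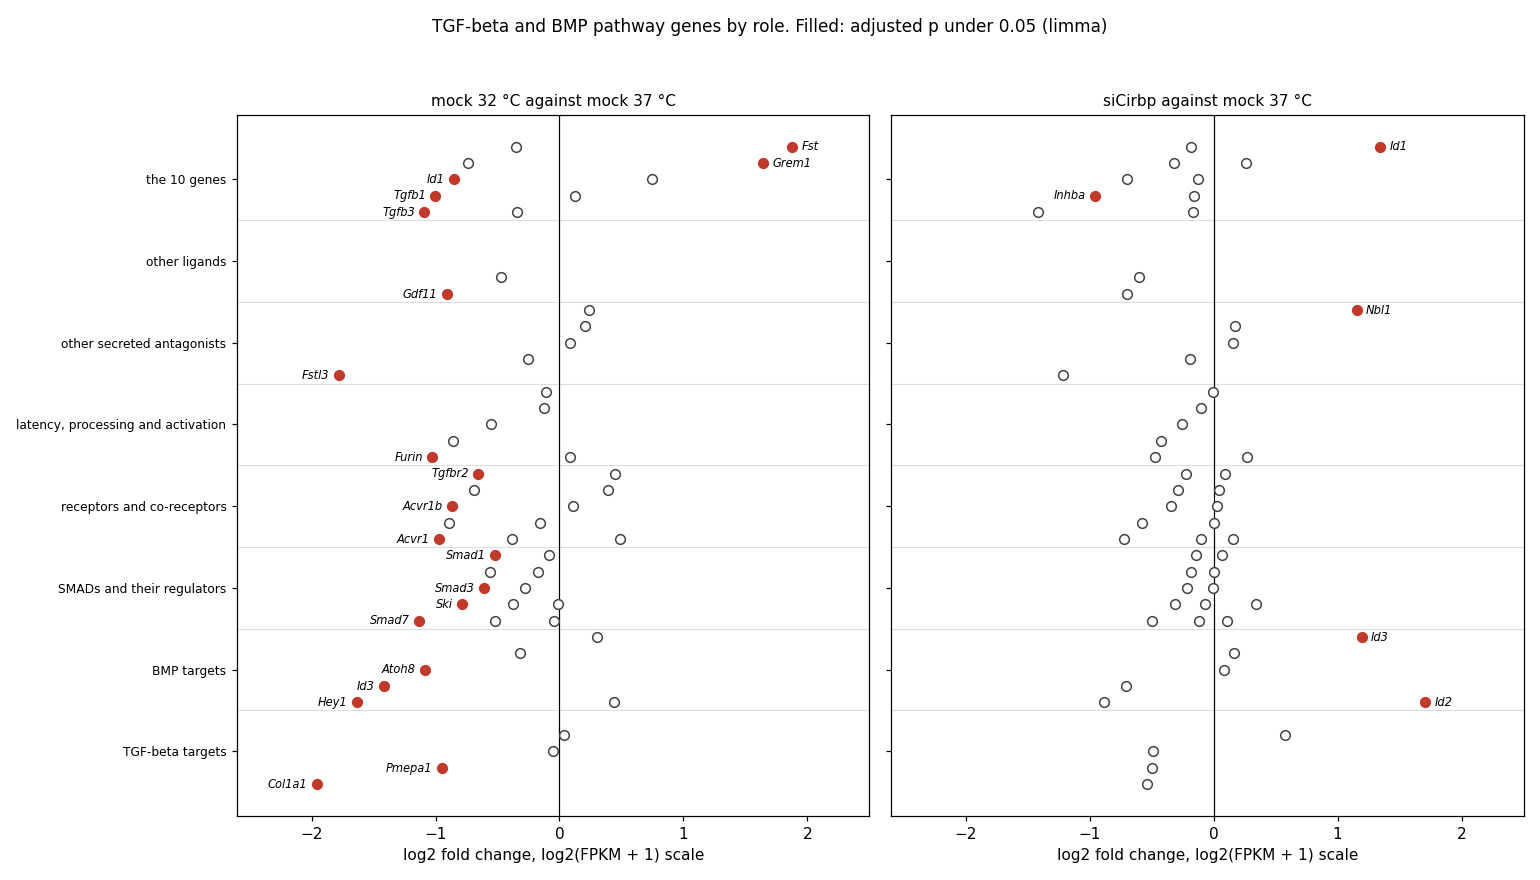
Log2 fold changes of the 10 genes and of 46 of the 47 tested genes of the pathway lists, by role, for 32 °C and for siCirbp against mock 37 °C; filled and named points passed an adjusted p of 0.05 with limma. At 32 °C all 15 filled points drawn of the lists lie below 0, while in siCirbp the 3 filled points of the lists, Id2, Id3 and Nbl1, lie above it.

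The second comparison, siCirbp against mock 37 °C, showed a rise of Id1 and a fall of Inhba. With limma 2 of the 10 genes passed, beside 3.39% of all tested genes. The 1 that rose compares with 2.77% of all tested genes and the 1 that fell with 0.624%. Libraries of the groups did not overlap for 6 of the 10, beside 60.4% of all tested genes. Id1 stood at 110.8 and 112.9 FPKM in siCirbp, above both mock 37 °C libraries at 37.1 and 50.8, and rose by a log2 fold change of 1.34 (SE 0.20, limma adjusted p = 0.0266). Inhba stood at 30.3 and 36.1 FPKM, below both mock 37 °C libraries at 61.5 and 69.3, and fell by 0.96 on the log2 scale (SE 0.15, limma adjusted p = 0.0286). Id1 thus changed in opposite directions at 32 °C and in siCirbp, against the same mock 37 °C libraries.

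Neither call held without any 1 of the 4 mock libraries or without replicate 2 of siCirbp, where few of all tested genes passed. The log2 fold changes of Id1 and Inhba kept their signs whichever library was left out. The same relation to transcript length was present in siCirbp (Spearman -0.266 across genes) and in the libraries labelled siRbm3 (-0.333), against the same controls, and Id1 is short at 911 nt. With that trend removed Id1 stood at 1.09 (limma adjusted p = 0.0695). Marker sums in siCirbp lay outside those of mock 37 °C for fibroblasts (2454 to 3087 FPKM against 4615 to 4816), muscle (66.8 in both libraries against 47.7 to 52.4, nearly all Tnnt2, with Myod1 listed at 0), neural cells (57.1 to 76.96 against 50.4 to 53.9) and macrophages (14.2 to 15.0 against 17.6 to 20.6). The endothelial sum, mostly Egfl7, lay just below too (1.673 to 2.262 FPKM against 2.264 to 3.256). Single genes weighed heavily in the other sums as well. Vim had 1939 and 1337 FPKM in siCirbp against 2889 and 2972 in mock 37 °C. Of the 7 tested fibroblast markers 4 were below both mock 37 °C libraries and 0 passed with limma, while Pdgfra, Pdgfrb and Col1a2 overlapped them. The macrophage marker Cd14 and the neural marker Nes overlapped them too. The part of the markers in the values of the 10 genes was not tested.

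The other 8 genes did not pass in siCirbp. Grem1 stood at 3.36 and 12.0 FPKM, both below the mock 37 °C libraries but far apart from each other, with a log2 difference of -1.42 (95% confidence interval -2.51 to -0.33, limma adjusted p = 0.122). Bmp4 stood at 11.3 and 4.80 FPKM, with a log2 difference of -0.70 (95% confidence interval -1.43 to 0.035, limma adjusted p = 0.225). Replicate 1 had the lower Grem1 and replicate 2 the lower Bmp4, so the ratio of Grem1 to Bmp4 FPKM was 0.297 and 2.49. Without replicate 1 of siCirbp Bmp4 passed, at -1.24 (limma adjusted p = 0.0229). Tgfb3 stood at 20.1 and 18.6 FPKM (log2 difference 0.27, 95% confidence interval -0.063 to 0.59). The log2 differences of Tgfb1, Tgfb2, Bmp1, Fst and Fstl1 were -0.16, -0.16, -0.32, -0.12 and -0.18, with intervals that included 0.

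In the pathway lists 3 of 47 genes rose and 0 fell in siCirbp. The share that rose was 6.38%, beside 2.77% of all tested genes that rose and 0.624% that fell. Among the BMP targets, 2 of 6 passed. Id3 stood at 143 and 157.6 FPKM against 57.7 and 73.1 in mock 37 °C (log2 fold change 1.20, limma adjusted p = 0.0266). Id2 stood at 16.5 and 27.5 FPKM against 5.21 and 6.53 (log2 fold change 1.71, limma adjusted p = 0.0487), a call lost under each of the 7 other settings of the fit (adjusted p = 0.0532 to 0.121). Id4, named here after its values were seen, stood at 41.3 ± 15.8 FPKM against 65.5 ± 2.93 (log2 difference -0.70, limma adjusted p = 0.167). Hey1, Atoh8 and Msx1 are named here on the same footing. Hey1 stood at 8.05 and 9.70 FPKM against 16.8 and 17.6 (log2 difference -0.88, limma adjusted p = 0.140). Atoh8 and Msx1 differed by 0.17 and 0.08 and did not pass. The antagonist Nbl1 rose from 2.65 to 7.08 FPKM (log2 fold change 1.15, limma adjusted p = 0.0364). None of these 3 calls held without any 1 of the 4 mock libraries or replicate 2 of siCirbp, where few of all tested genes passed. Without replicate 1 of siCirbp, or either library labelled siRbm3, more pathway genes passed, some higher and some lower. More of all tested genes passed there too. Without 1 library the log2 fold changes ran from 1.03 to 1.36 for Id3, 1.35 to 2.06 for Id2 and 1.00 to 1.31 for Nbl1.

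For the libraries labelled siRbm3 against mock 37 °C, 0 of the 10 genes passed with limma, as did 0% of all tested genes. At an unadjusted p under 0.05 there were 2 of the 10 and 1451 of all tested genes. Libraries did not overlap for 6 of the 10, beside 50.5% of all tested genes. The 2 genes were Inhba and Tgfb3. Inhba stood at 31.3 and 31.4 FPKM against 61.5 and 69.3, a log2 difference of -1.04 (SE 0.15, 95% confidence interval -1.39 to -0.68, limma adjusted p = 0.185). Without replicate 1 of that label, the library that went against it, Inhba passed at -1.03 (limma adjusted p = 0.0175). Tgfb3 stood at 22.4 and 20.3 FPKM against 15.3 and 16.6 (log2 difference 0.40, 95% confidence interval 0.068 to 0.72, limma adjusted p = 0.351).

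Grem1 stood at 13.4 and 7.82 FPKM and Bmp4 at 9.00 and 8.52 in the libraries labelled siRbm3, all below the mock 37 °C libraries, with log2 differences of -0.84 (95% confidence interval -1.92 to 0.25) and -0.49 (-1.22 to 0.24). Tgfb1 at 32.9 and 42.7 FPKM and Fstl1 at 164.9 and 189.4 were above them, with log2 differences of 0.27 (-0.20 to 0.74) and 0.30 (-0.11 to 0.72). Id1 stood at 60.6 and 45.9 FPKM, which overlapped mock 37 °C. Tgfb2 (7.61 and 7.25 FPKM), Bmp1 (26.0 and 39.7) and Fst (1.54 and 1.96) overlapped as well. In the pathway lists 0 of 47 genes passed, and 2 did without replicate 1 of that label, where 951 of the 10901 genes passed.

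The siRNA groups share the mock 37 °C libraries, so they were also compared with each other. Between siCirbp and the libraries labelled siRbm3 0 of the 10 genes passed with limma, beside 0.0367% of all tested genes, and 2 of the 10 had an unadjusted p under 0.05, as did 1654 of the 10901 genes. Libraries did not overlap for 5 of the 10, beside 36.3% of all tested genes. Id1 was 1.07 higher in siCirbp on the log2 scale (SE 0.20, 95% confidence interval 0.61 to 1.53, limma adjusted p = 0.221), and passed without replicate 1 of the siRbm3 label, at 1.27 (limma adjusted p = 0.0104). Fstl1, at 109.2 and 145.3 FPKM in siCirbp, differed by -0.49 (95% confidence interval -0.90 to -0.074, limma adjusted p = 0.283). Inhba differed by 0.08 (95% confidence interval -0.28 to 0.43), and its libraries overlapped. Of the 47 pathway genes 0 passed, and 11 did (4 higher, 7 lower) without replicate 1 of the siRbm3 label, where 2132 of the 10901 genes passed.

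Bmp1 was the only one of the 10 genes with more than 1 listed transcript, a coding one of 3759 nt and a noncoding one of 4454 nt. In mock 37 °C the noncoding transcript held 36.2% and 39.1% of Bmp1 FPKM. Its share was 47.5% and 38.2% at 32 °C, 44.7% and 42.4% after siCirbp, and 41.3% and 23.3% under the siRbm3 label. The siCirbp shares lay above those of mock 37 °C and of the siRbm3 label and overlapped those at 32 °C. This split rests on how the authors' software assigned shared reads.

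Over the 4 group means, the widest ranges on the log2 scale were those of Grem1 (3.06), Id1 (2.19) and Fst (2.10), and the narrowest that of Tgfb2 (0.34). The genes whose log2 levels over the 8 libraries were most like those of Grem1 and Id1 were sought among 2266 genes with a mean of at least 5 FPKM and a range of at least 1 between group means. For Grem1 they were Arntl2, a clock transcription factor (Pearson r = 0.976), Rnmt, the mRNA cap methyltransferase (0.970), and Gulp1, an engulfment adaptor (0.967). In mock 37 °C Arntl2 had 14.3 and 14.7 FPKM, against 25.3 and 22.9 at 32 °C, 6.80 and 10.4 after siCirbp, and 9.19 and 8.60 under the siRbm3 label. For Id1 they were BC055324 (0.989), Cenph, a kinetochore protein (0.988), and Mcm3, a subunit of the replicative helicase (0.985). In mock 37 °C Mcm3 had 11.3 and 13.0 FPKM, against 3.89 and 5.37 at 32 °C, 50.7 and 71.5 after siCirbp, and 28.7 and 15.5 under the siRbm3 label. The points of each correlation are the same 8 libraries in 4 groups, so r follows mainly the group means and carries no p.

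PAR-CLIP placed no deposited site in the locus of any of the 10 genes. For Cirbp, 0 of 10 loci held 1 of its 1941 sites, beside 8.32% of all tested genes, and for Rbm3 0 of 10 held 1 of its 2118 sites, beside 8.79%. Among the 8689 tested genes whose mean lay within the range of the 10 (4.20 to 151 FPKM) the shares were 9.46% and 9.74%. The counts stayed at 0 with loci widened by 1000 nt on both sides. The nearest sites were at 46.1 kb (Cirbp) and 47.0 kb (Rbm3) from Fstl1, 49.3 kb (Rbm3) from Tgfb1 and 68.2 kb (Rbm3) from Inhba. With 1 library per protein there is no replicate check, and the sites passed a filter that is not spelled out, so no site in a locus is not absence of binding.

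Of the 79 genes of the pathway lists, 7 held a Cirbp site and 10 an Rbm3 site, beside 1006 and 1125 of all 22552 listed genes. Most of the 7 and of the 10 were receptors and SMADs or SMAD regulators, lists that supplied 11 and 12 of the 47 tested pathway genes. Of the 3 genes that rose in siCirbp, Id3 held a Cirbp site (mm9 chromosome 4, 135701248 to 135701269, score 334) and so did Id2 (chromosome 12, 25779169 to 25779195, score 201). Of the 16 that fell at 32 °C, Acvr1b, Ski and Id3 held a Cirbp site and Smad7, Ski and Hey1 an Rbm3 site. Over all tested genes 8.32% held a Cirbp site and 8.79% an Rbm3 site. A relation between sites and these changes was not tested. The score is the authors' own, from 1 to 1000, with a median of 301 for Cirbp and 318 for Rbm3. Smad5, a BMP SMAD, held a site at the same start for both proteins (chromosome 13, 56825003 to 56825038, score 334, for Cirbp and 56825003 to 56825032, score 301, for Rbm3). Ski and the activin receptor Acvr2a also held sites of both proteins.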

How the data were processed

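Polyadenylated RNA of 8 fibroblast libraries was read as 76-base single-end reads, and 2 PAR-CLIP libraries gave site lists. The FPKM and coverage columns were deposited by the authors per transcript, 28702 in all, on mm9. TopHat 1.1.2 is named in the submitters' processing notes, while the annotation release and how multiply mapping reads were counted are not given in the sources used here. The site score is as deposited by the authors, on a scale that is not stated, and the site caller is not given in the sources used here. Transcript length in nt is as given per the file headers.

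FPKM were summed per gene. Mapped fragments and reads per gene were recovered from coverage over FPKM. Genes with a mean of at least 1 FPKM were tested with limma 3.58.1 in R 4.3.3 on log2(FPKM + 1), with 4 group means, trend and robust moderation, two-sided p-values, Benjamini-Hochberg adjustment over all 10901 genes and a threshold of 0.05. With 2 libraries against 2, an exact permutation test cannot reach that threshold. Each gene was given 1 spread shared by the 4 groups. The SE, interval and p of a comparison thus also carry the spread of groups not compared, which was wider in the siRNA groups than in the mock groups. Confidence intervals are at 95% and not adjusted. A locus spans all listed transcripts of a gene and counted as holding a site from 1 nt of overlap on either strand.

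All 10 genes are named. From the other pathway lists up to 3 genes per list and comparison are named, by adjusted p among those that passed, and exceptions are stated; 1 gene that this rule names is counted but not reported here. For the 2 genes of widest range, the 3 most correlated genes are named. The members, lists and alternatives were chosen with earlier results of these data known. Alternatives were another pseudocount (0.1), no filter, median centring, removal of a length trend, the highest transcript only, a replicate block, a fit of the 2 groups compared and leaving out each library. The shared replicate numbers were checked, and residuals of same-numbered libraries correlated at -0.15 to 0.091, so no pairing was assumed.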

Additional observations from a re-analysis of the deposited data

How the results depend on the processing

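At 32 °C, 5 of the 10 genes passed with all 4 groups fitted, 9 with only the 2 groups compared (7557 of all tested genes), and 2 to 7 without 1 library. For siCirbp the 2 calls became 0 without the filter, 0 with the replicate block and 0 with only the 2 groups compared. With the length trend removed 1 was left. Of all tested genes 57, 3, 13 and 92 passed in those fits, in that order, against 370 in the main fit. Both calls were also lost in several fits without 1 library, where far fewer than 370 of all tested genes passed. For the siRbm3 label and for siCirbp against it, the count of 0 became 0 to 1 without 1 library in each. Of the 47 pathway genes, the 16 called at 32 °C became 32 with only the 2 groups compared and 2 to 22 without 1 library. In siCirbp the count of 3 became 0 without the filter, 0 with the replicate block and 0 with only the 2 groups compared. These are the fits named above in which few of all tested genes passed. The count moved both ways without 1 library. With the length trend removed it was 1, a gene that fell and none of those 3. In the libraries labelled siRbm3 the 0 became 0 to 2, and for siCirbp against them 0 to 11, without 1 library. The causes of these moves were not tested.

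At 32 °C Grem1 missed the threshold without the filter (limma adjusted p = 0.0704), with the length trend removed (0.0713) and with the replicate block (0.0567), and Bmp1 passed with that block (0.0441). In siCirbp both Inhba and Id1 missed it with the block (limma adjusted p = 0.0617 each). The replicate numbers share only a number. Median centring moved the median log2 difference of all tested genes at 32 °C from -0.02 to 0.11, and the 10 genes kept 2 higher and 3 lower calls.

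Signs turned only among genes that had not passed. For the siRbm3 label Tgfb2, at 0.0011, became -0.063 with median centring, -0.012 with the length trend removed and -0.067 to 0.069 without 1 library, and Bmp1 became 0.027 with the highest transcript only and -0.37 to 0.22 without 1 library. Without 1 library, log2 differences in siCirbp ran from -0.39 to 0.066 for Tgfb1, -0.68 to 0.037 for Bmp1, -0.40 to 0.15 for Fst and -0.39 to 0.022 for Fstl1. Between siCirbp and the siRbm3 label they ran from -0.044 to 0.20 for Inhba, -0.60 to 0.12 for Bmp1, -0.75 to 0.33 for Bmp4, -1.37 to 0.21 for Grem1 and -0.17 to 0.38 for Fst. Where 1 library was left in a group, it was assumed to vary like the other groups. The PAR-CLIP counts of 0 of 10 stayed at 0 for both proteins with widened loci. Keeping only sites at or above the median score could not raise a count of 0. The same holds for sites on the gene's strand, which was known for 6 genes, so neither setting is a check. Depth limits Fst most, at 93 to 696 reads.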

Other observations

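The level of Inhba relative to its antagonist Fst, as a ratio of FPKM, was 24.2 and 36.0 in mock 37 °C, against 5.05 and 4.39 at 32 °C. The same ratio was 11.8 and 25.1 after siCirbp and 20.2 and 16.0 under the siRbm3 label. Both 32 °C libraries had the lowest values of the 8. The level of Grem1 relative to the BMP ligand Bmp4 was 1.64 and 1.38 in mock 37 °C, against 2.81 and 2.82 at 32 °C. In the libraries labelled siRbm3 it was 1.49 and 0.918. These ratios were not tested. The share of Tgfb3 in the summed FPKM of the 3 TGF-beta ligands was 29.2% and 29.4% in mock 37 °C. It was 23.6% and 26.9% at 32 °C, 40.5% and 32.0% after siCirbp, and 35.6% and 28.9% under the siRbm3 label.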
